A study of Mus musculus with 21 samples.

Results

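Interferon-responsive and antigen processing genes are described here in mouse embryonic stem (ES) cells, round sperm and fibroblasts. The set is a list of 38 genes given by name. It was chosen with earlier results of these data known, so its shares beside those of all genes are descriptive. Where a gene had several probe sets annotated to it alone, the probe set was chosen by its mean level across the 21 arrays, the highest being taken, a choice that uses no group label. Of the 38 genes, 37 were found, out of 18193 genes with such a probe set, and the 38th, Isg15, shares its probe set's annotation with another gene and was not used. Expression was measured on 21 Affymetrix arrays, 3 for each of 7 groups. The haploid lines were the androgenetic haploid ES (ahES) lines AH129-5, AH129-N1 and AH129-NC1, all of 129 Sv background, whose single chromosome set comes from the father and which had been sorted by flow cytometry as haploid cells at G0/G1. They were set against the diploid ES lines CS1-1 and R1, also labelled 129 Sv, for which no sort is described. Both kinds of ES cell had been kept in N2B27 medium supplemented with 2i and LIF. Round sperm, which are post-meiotic male germ cells, were of 129 Sv background, taken directly from testis and likewise sorted as haploid G0/G1 cells. Mouse embryonic fibroblasts (MEF) were of CD1 background and grown in DMEM with serum, so cell type, strain and medium change together in every comparison with MEF. Each ES group is 1 cell line and its 3 arrays are labelled as biological replicates, so a difference between lines is a difference between these lines only. No group is labelled as treated with interferon or infected.

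Interferons are secreted proteins that warn cells of infection. Type I interferon acts through the receptor Ifnar1 and Ifnar2 on a complex that includes Stat2 and Irf9 and binds the interferon-stimulated response element (ISRE) in promoters, while the response to interferon gamma uses the gamma-activated site (GAS). The induced proteins block viral entry, sense and degrade viral RNA, stop translation, and cut and load peptides for presentation on MHC class I. ES cells are known to respond weakly to interferon and to make little of it, yet to express some interferon-stimulated genes without stimulation.

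The promoters of several of these genes are shown because they hold the ISRE, the shared element of the response. Each stretch covers the 160 bases before the annotated start in the RefSeq tables of GRCm38.p6, which is the C57BL/6J reference and not the 129 Sv or CD1 sequence, and capitals mark ISRE matches on either strand. They come from Irgm1 at chr11:48871421-48871580 (minus strand), Igtp at chr11:58199396-58199555 (plus strand), Irgm2 at chr11:58214817-58214976 (plus strand), Gbp3 at chr3:142559884-142560043 (plus strand), Ifit1 at chr19:34640729-34640888 (plus strand), Bst2 at chr8:71537473-71537632 (minus strand) and B2m at chr2:122147527-122147686 (plus strand).
Irgm1: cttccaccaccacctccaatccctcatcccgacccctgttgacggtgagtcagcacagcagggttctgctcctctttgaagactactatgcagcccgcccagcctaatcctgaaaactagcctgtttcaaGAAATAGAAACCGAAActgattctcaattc
Igtp: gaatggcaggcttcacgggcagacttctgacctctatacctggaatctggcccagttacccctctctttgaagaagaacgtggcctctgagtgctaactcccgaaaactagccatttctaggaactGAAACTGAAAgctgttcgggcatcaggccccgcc
Irgm2: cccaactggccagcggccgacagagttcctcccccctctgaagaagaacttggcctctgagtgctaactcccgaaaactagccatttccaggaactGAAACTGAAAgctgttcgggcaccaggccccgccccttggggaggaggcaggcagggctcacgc
Gbp3: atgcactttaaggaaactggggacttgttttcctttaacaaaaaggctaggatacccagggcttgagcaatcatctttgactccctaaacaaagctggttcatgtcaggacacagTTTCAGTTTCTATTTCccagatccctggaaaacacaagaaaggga
Ifit1: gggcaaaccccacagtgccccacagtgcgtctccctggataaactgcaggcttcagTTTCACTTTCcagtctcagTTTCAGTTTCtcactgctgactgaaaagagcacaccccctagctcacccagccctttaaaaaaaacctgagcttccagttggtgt
Bst2: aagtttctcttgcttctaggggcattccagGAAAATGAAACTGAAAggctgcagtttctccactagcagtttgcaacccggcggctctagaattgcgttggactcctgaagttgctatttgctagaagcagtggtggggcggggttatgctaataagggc
B2m: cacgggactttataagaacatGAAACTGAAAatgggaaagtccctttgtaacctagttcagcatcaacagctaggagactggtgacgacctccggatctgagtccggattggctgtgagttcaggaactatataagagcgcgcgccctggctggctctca
Irgm1, Gbp3, Ifit1 and Bst2 each held 2 matches in this stretch, while Igtp, Irgm2 and B2m held 1. The stretches of Igtp and Irgm2 shared an unbroken run of 38 bases.

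Over windows from 250 bases before to 50 bases after the start, the ISRE, searched on both strands as GAAA, any 2 bases and GAAA again, was present in 16 of the 32 measured members with a window (50%). It was present in 3.64% of the 14368 genes with both a probe set and a window. The GAS, searched as TTC, any 3 bases and GAA, was present in 9 of 32 members (28.1%) and in 8.57% of those genes. Both motifs were present in 5 of the 32, and matches of the motifs were allowed to overlap each other. These are matches of letters, and no binding was measured. Iigp1, Dhx58, Usp18, Tap2 and Parp14 had no window in the table.

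The labels were checked against cell type markers. All 6 pluripotency markers were above background in every ES line, and all 6 round spermatid markers in round sperm. All 9 measured fibroblast markers were above background in MEF, where they summed to 115600 to 121200 signal units, but also in every ES line. Their sum was 20770 to 24680 in AH129-5, 19060 to 23580 in AH129-N1, 17160 to 17570 in AH129-NC1, 2594 to 3272 in CS1-1, 23240 to 24240 in R1 and 1336 to 1416 in round sperm. CS1-1 thus stood apart from the other ES lines in fibroblast RNA, and the values are repeated beside the results they move with. Of 12 leukocyte and macrophage markers, 8 were above background in each haploid line and in CS1-1 and 7 in R1, among them Laptm5, Lyz2 and Cd68, while Ptprc, Itgam, Cd3e and Cd79a were near background in every ES line.

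Levels below are log2(signal + 9.70), and differences between groups are log2 differences on that scale with their standard error (SE), which understate the change of weakly expressed genes. A gene passed at an adjusted p under 0.05 by limma and a change of at least 2-fold. A group is called near background where its mean lay at or below the 40th percentile of its arrays, and a fold is then a lower bound against that percentile. Among the 37 genes, AH129-N1 had the lowest mean of the 5 ES lines for 21 genes and the highest for 0, and CS1-1 had the lowest for 9. Over all 7 groups, round sperm had the lowest mean for 22 genes. How often each group ranks lowest or highest among all genes was not counted, so these ranks are not shown to be particular to the list. Near-background means numbered 4 in AH129-5, 9 in AH129-N1, 2 in AH129-NC1, 7 in CS1-1, 2 in R1, 17 in round sperm and 5 in MEF. Of all 18193 genes, 28.5% were near background in round sperm and 31.5% to 33.7% in the other groups. No gene was near background in every group.

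**Figure D1:**
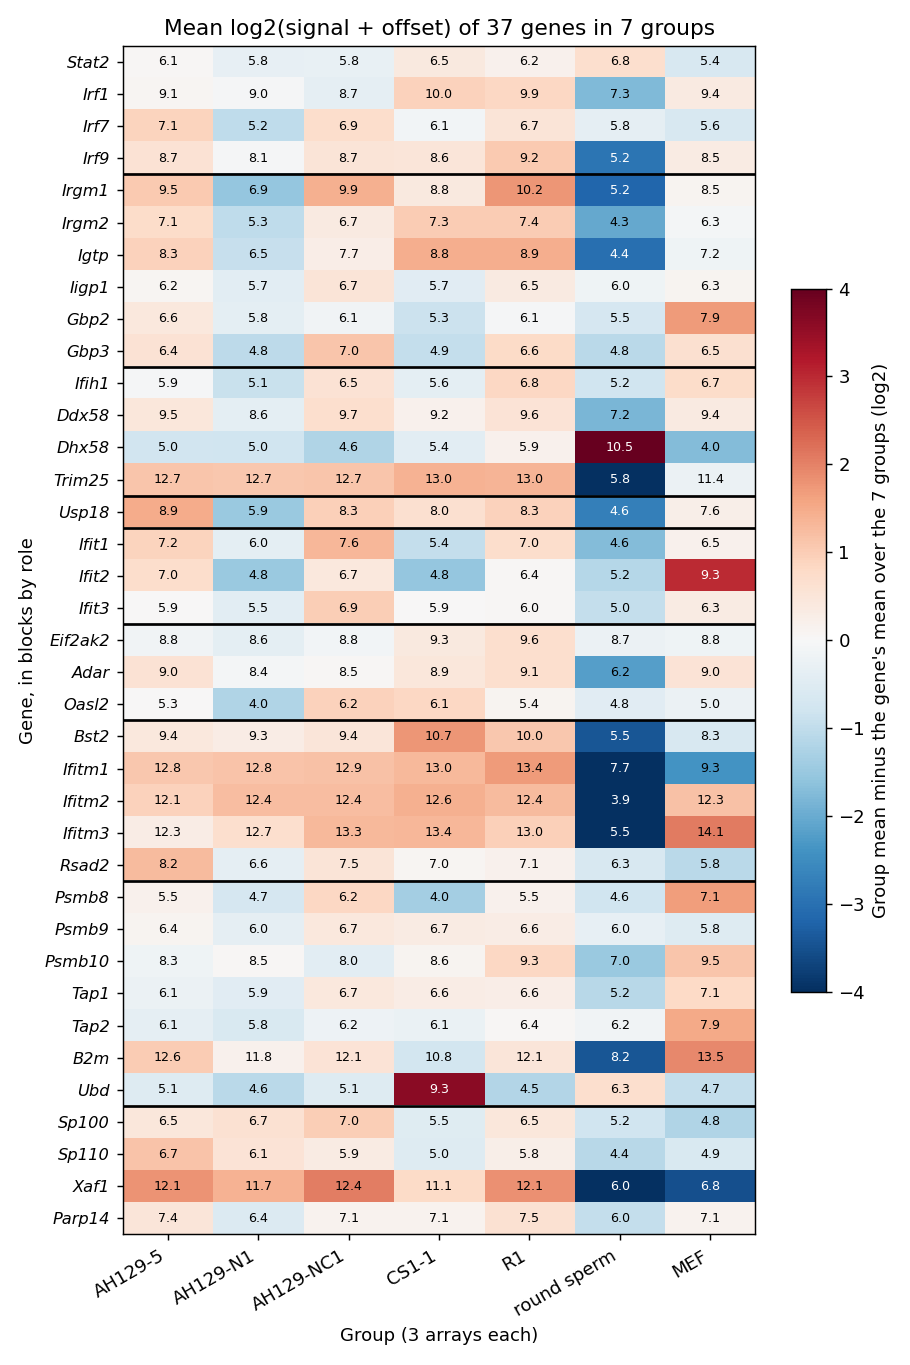
Each row is 1 of the 37 genes, in blocks by role, and each column 1 of the 7 groups of 3 arrays, with the mean log2(signal + 9.70) printed in the cell. Colour gives the group mean minus the gene's own mean over the groups in log2 units, limited to 4 in either direction, so levels are to be compared along a row. AH129-N1 is blue for most GTPase and Ifit genes, and Ubd in CS1-1 and Dhx58 in round sperm are among the reddest cells. Round sperm is the lowest group for 22 genes, a count not made over all genes.

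The haploid lines AH129-N1 and AH129-NC1 differed in many of the listed genes, all in the direction of lower levels in AH129-N1. Of 35 genes tested, 13 were lower in AH129-N1 and 0 were higher, against 3.11% of 12077 genes that passed in either direction, 2.14% that passed as lower and 0.977% as higher. Because the list was chosen with earlier results of these data known, this contrast describes the list and is no independent test. The ranges over arrays did not overlap for 24 of the 35, against 47.4% of all genes tested. With no adjustment for multiple tests, limma's p was under 0.05 for 23 lower genes and 2 higher ones, Irf1 and Psmb10. The median difference was -0.70 over the 35 genes and 0.04 over all genes. The 13 were 4 of the 6 GTPases, both tested sensors other than Trim25, Usp18, all 3 Ifit genes, Oasl2, Irf7 and Psmb8. In bulk RNA of this kind, fewer cells expressing a gene and less RNA per cell cannot be told apart.

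Among the GTPases, Irgm1, which acts on vacuoles that hold microbes and on autophagy, had levels of 7.02, 7.03 and 6.60 in AH129-N1 and 9.91, 9.69 and 9.98 in AH129-NC1. It was 7.86-fold lower, with a difference of -2.97 ± 0.11 (SE, adjusted p = 9.13e-13), and it was also lower than on any array of the 3 other ES lines. Gbp3, a guanylate-binding protein, had levels of 4.77, 4.09 and 5.46 in AH129-N1, near background, and 7.30, 6.51 and 7.06 in AH129-NC1 (difference -2.19 ± 0.38, at least 2.83-fold). Irgm2 and Igtp, relatives of Irgm1, differed by -1.36 ± 0.24 and -1.21 ± 0.17, with Irgm2 near background in AH129-N1. Iigp1 at -0.93 ± 0.27 and Gbp2 at -0.25 ± 0.31 did not pass.

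Usp18, the protease that removes the ubiquitin-like protein Isg15 and restrains signalling at the type I interferon receptor, had levels of 6.04, 5.93 and 5.78 in AH129-N1 and 8.19, 8.39 and 8.46 in AH129-NC1. The groups were apart by more than 2 log2 units on every pair of arrays, and the difference was -2.43 ± 0.14 (5.39-fold, adjusted p = 1.92e-10). The Ifit proteins, which bind foreign RNA, followed the same direction. Ifit2 had levels of 4.97, 5.52 and 4.03 in AH129-N1, near background, and 6.95, 6.64 and 6.64 in AH129-NC1 (difference -1.91 ± 0.37). Ifit1 differed by -1.69 ± 0.24 and Ifit3 by -1.42 ± 0.27.

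Irf7, the transcription factor that amplifies type I interferon production, had levels of 5.99, 4.08 and 5.51 in AH129-N1 and 7.25, 6.93 and 6.60 in AH129-NC1 (difference -1.73 ± 0.37). Oasl2, a relative of the oligoadenylate synthetases, had levels of 3.77, 3.42 and 4.93 in AH129-N1 and 6.14, 6.55 and 5.80 in AH129-NC1 (difference -2.12 ± 0.41, at least 1.63-fold). Both were near background in AH129-N1 and none of their ranges overlapped. The RNA sensors Ifih1 (MDA5) and Ddx58 (RIG-I) differed by -1.48 ± 0.42 and -1.08 ± 0.11. Psmb8, an immunoproteasome subunit, differed by -1.505 ± 0.41 and, like Ifih1, was near background in AH129-N1.

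The other genes of the list did not pass. Stat2 at -0.03 ± 0.26, Trim25 at -0.02 ± 0.05, Ifitm1 at -0.04 ± 0.06 and Ifitm2 at 0.02 ± 0.05 had overlapping ranges in the lines. Irf9, Ifitm3, Xaf1, B2m, Rsad2, Psmb9, Parp14, Iigp1 and Eif2ak2 had adjusted p-values under 0.05 but were short of 2-fold, with differences between -0.93 (Iigp1) and -0.27 (Eif2ak2). Irf1, which mediates much of the response to interferon gamma, differed by 0.31 ± 0.10 and the immunoproteasome subunit Psmb10 by 0.47 ± 0.13, both short of 2-fold in the other direction. Of the 12 lower genes with a promoter window, 8 held an ISRE (66.7%), against 8 of the 20 other members (40%). These are small counts whose contrast was not tested, so no link between the motif and the lower levels is drawn. The windows are also not independent. Igtp and Irgm2, among the lower genes, share a run of 38 bases, and the windows of Tap1 and Psmb9, among the others, overlap by 275 bases.

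Several calls depended on the processing. With an offset of 50 in place of 9.70, Ifih1, Ifit3, Igtp, Irgm2, Oasl2 and Psmb8 differed by -0.96 to -0.76, short of 2-fold, and 7 genes passed. With only genes above the 60th percentile tested, 18 of the 37 were tested and 5 passed. Without AH129-N1 replicate 2, Ifih1 differed by -0.90 with an adjusted p of 0.07 and did not pass, and with the mean of its probe sets Ddx58 differed by -0.44 with an adjusted p of 0.138. The other probe sets of Ddx58 differed by -0.79, short of 2-fold, and by 0.57, the latter near background on average over all arrays. Leaving out each of the 6 arrays in turn gave 13 to 15 genes. The sum of the fibroblast markers was 19060 to 23580 signal units in AH129-N1 and 17160 to 17570 in AH129-NC1. The sum of the leukocyte markers was 4783 to 5201 in AH129-N1 and 6871 to 7586 in AH129-NC1, with Cd68 lower, at -1.496 ± 0.11, and 4 of the 12 markers near background in both lines. Such a sum is weighted to the brightest markers, and the highest marker mean was 11.54 in AH129-N1 and 12.39 in AH129-NC1. Over the 8 markers tested, Cd68 alone passed and the median difference was 0.14, so the markers did not share a direction. The part of either kind of RNA in the result was not tested.

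Further genes of the pathway, from lists chosen with earlier results known, were set beside these for the same pair of lines. Of 28 other interferon-stimulated genes tested, 10 were lower in AH129-N1 and 0 higher, beside 2.14% of all genes as lower and 0.977% as higher, with a median difference of -0.65. Among them Rtp4, a chaperone of receptors, differed by -2.19 ± 0.12, Parp12 by -1.48 ± 0.12 and Oas2, which makes the activator of RNase L, by -1.24 ± 0.14. Of the nucleic acid sensors and adaptors, 1 of 11 was lower, Zbp1, by -2.07 ± 0.39. None of the 6 interferon receptor genes and none of the 9 JAK-STAT genes tested passed. None of the 8 interferon genes with a probe set was tested in any comparison between ES lines. None lay above the filter on low values on every array of any of these lines. In AH129-5, the means of Ifnb1 (5.715) and Ifna1 (5.61) were just above background.

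**Figure D2:**
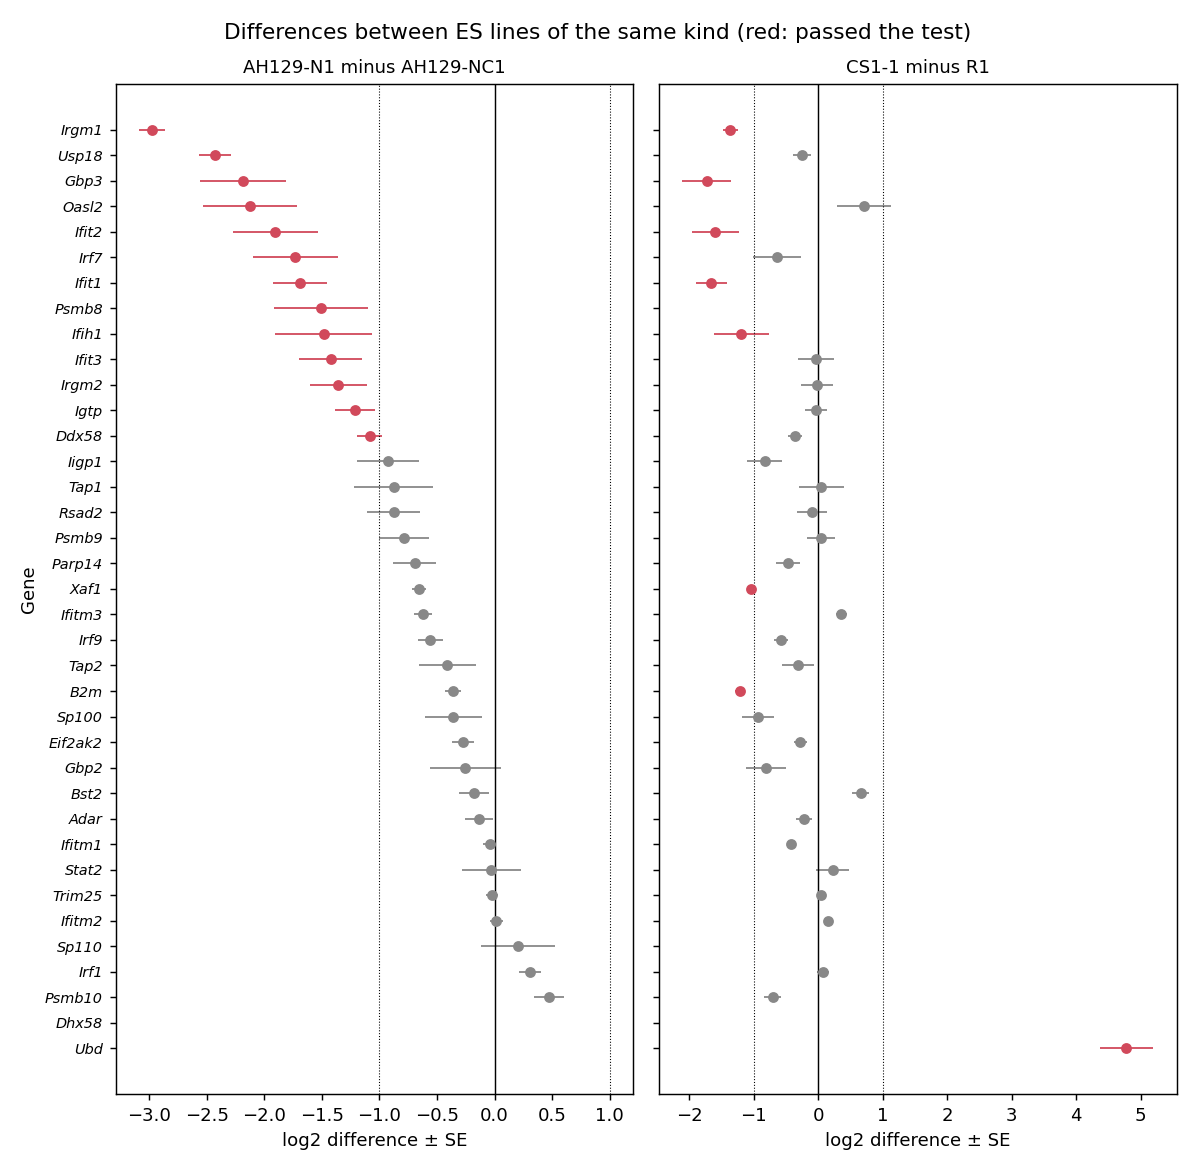
Log2 differences with their SE for each tested gene, AH129-N1 minus AH129-NC1 on the left and CS1-1 minus R1 on the right, with red points for genes that passed and dotted lines at 2-fold. Genes run in order of the left panel, from Irgm1 at -2.97, and 13 genes passed on the left, all lower in AH129-N1. On the right 8 passed, with Ubd at 4.78 as the single higher gene.

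AH129-5 was higher than the mean of the other haploid lines for 7 of 35 genes and lower for 0, against 4.17% of 12427 genes that passed in either direction, 2.72% that passed as higher and 1.45% as lower. The ranges over arrays did not overlap for 10 of the 35, against 26.8% of all genes. Without adjustment, limma gave a p under 0.05 for 15 higher genes and 2 lower ones, Ifitm2 and Ifitm3. The 7 were Usp18, Igtp, Ifit2, Rsad2, Irgm1, Irgm2 and Irf7. The mean of the other lines includes AH129-N1, whose low values are described above, and this comparison is not independent of that one. Usp18 was at 8.95, 8.87 and 8.76 in AH129-5, above every array of the other haploid lines, and differed by 1.73 ± 0.12. Rsad2 (viperin), which makes an antiviral nucleotide, had levels of 8.08, 8.27 and 8.26 in AH129-5, against 7.07, 6.54 and 6.12 in AH129-N1 and 7.54, 7.40 and 7.43 in AH129-NC1 (difference 1.19 ± 0.20). The other probe sets of Rsad2 differed by 0.66, short of 2-fold, and by 1.24, the latter near background on average over all arrays.

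Igtp had levels of 8.18, 8.51 and 8.31 in AH129-5, against 6.30, 6.35 and 6.77 in AH129-N1 and 7.59, 8.06 and 7.40 in AH129-NC1 (difference 1.26 ± 0.15). Irgm2 was at 6.98, 7.15 and 7.06 in AH129-5, against 5.42, 4.71 and 5.88 in AH129-N1 and 6.74, 6.79 and 6.54 in AH129-NC1 (difference 1.05 ± 0.21). For Usp18, Rsad2, Igtp and Irgm2 AH129-5 lay above both other haploid lines on every array, whereas Ifit2 and Irf7 in AH129-5 overlapped AH129-NC1. Irgm1 was at 9.29, 9.51 and 9.56 in AH129-5, against 7.02, 7.03 and 6.60 in AH129-N1 and 9.91, 9.69 and 9.98 in AH129-NC1. It was thus above AH129-N1 but below AH129-NC1 on every array, and passed as higher only against the mean of both lines. With arrays centred on their medians, Irgm1, Irgm2 and Irf7 fell short of 2-fold and 4 genes passed, and with an offset of 50 Ifit2 and Rsad2 did so too and 2 genes passed. Without AH129-N1 replicate 2, Irf7 differed by 0.76 and Irgm2 by 0.90, both short of 2-fold, and Irf7 also fell short without AH129-5 replicate 1 (0.95) or AH129-NC1 replicate 3 (0.95).

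The diploid lines also differed. Between CS1-1 and R1, 1 of 34 genes was higher in CS1-1 and 7 were lower, against 9.87% of 12100 genes that passed in either direction, 4.17% as higher and 5.69% as lower. The ranges did not overlap for 19 of the 34, against 59.9% of all genes. The higher gene was Ubd (FAT10), a ubiquitin-like protein induced by interferon gamma and tumour necrosis factor, with levels of 9.26, 9.27 and 9.25 in CS1-1 and 3.72, 5.18 and 4.53 in R1, where it was near background. The difference was 4.78 ± 0.41 (at least 13.5-fold, adjusted p = 9.88e-09). Ubd was also near background in each of the 3 haploid lines, so that CS1-1 was the single ES line with a clear level.

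The lower genes in CS1-1 were Gbp3, Ifit1, Ifit2, Irgm1, B2m, Ifih1 and Xaf1. Gbp3 had levels of 5.14, 4.84 and 4.65 in CS1-1 and 6.92, 6.12 and 6.75 in R1 (difference -1.72 ± 0.38). Ifit1 had levels of 5.25, 5.07 and 5.80 in CS1-1 and 6.77, 7.28 and 7.04 in R1 (difference -1.66 ± 0.24, at least 2.74-fold). These and Ifit2, at 4.92, 5.30 and 4.09 in CS1-1 and 5.99, 6.58 and 6.50 in R1 (difference -1.59 ± 0.37), were near background in CS1-1. Irgm1 was at 8.84, 8.81 and 8.78 in CS1-1 and 10.17, 10.23 and 10.12 in R1 (difference -1.36 ± 0.11), so it was well above background in both. Usp18, Igtp, Irgm2 and Ifit3, which passed between the haploid lines, did not pass here, with differences between -0.26 ± 0.14 (Usp18) and -0.01 ± 0.24 (Irgm2).

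B2m, the light chain of MHC class I, had levels of 10.70, 10.80 and 11.04 in CS1-1 and 12.11, 11.97 and 12.09 in R1 (difference -1.21 ± 0.07, 2.31-fold, adjusted p = 4.04e-11). It was lower in CS1-1 than on any array of the other ES lines. The sum of the fibroblast markers was 2594 to 3272 signal units in CS1-1 and 23240 to 24240 in R1, and B2m was at 13.49, 13.40 and 13.62 in MEF. All 9 fibroblast markers were above background in both lines and the part of such RNA in the difference was not tested. Gbp3, Ifih1 and Ifit2 differed by -0.98 to -0.75 with an offset of 50, where 5 genes passed. Ifih1 differed by -1.19 ± 0.42 and did not pass without CS1-1 replicate 2, R1 replicate 1 or R1 replicate 2 (adjusted p = 0.130, 0.0814 and 0.0609).

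Xaf1, a pro-apoptotic interferon-stimulated gene, gave opposite answers with its probe sets. With the brighter one its levels were 11.12, 11.09 and 11.02 in CS1-1 and 12.14, 12.13 and 12.06 in R1 (difference -1.04 ± 0.06, 2.05-fold). With the other one the levels were 10.79, 10.61 and 10.75 in CS1-1 and 9.09, 9.13 and 9.11 in R1, higher in CS1-1. The direction for Xaf1 between these lines is therefore not settled.

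**Figure D3:**
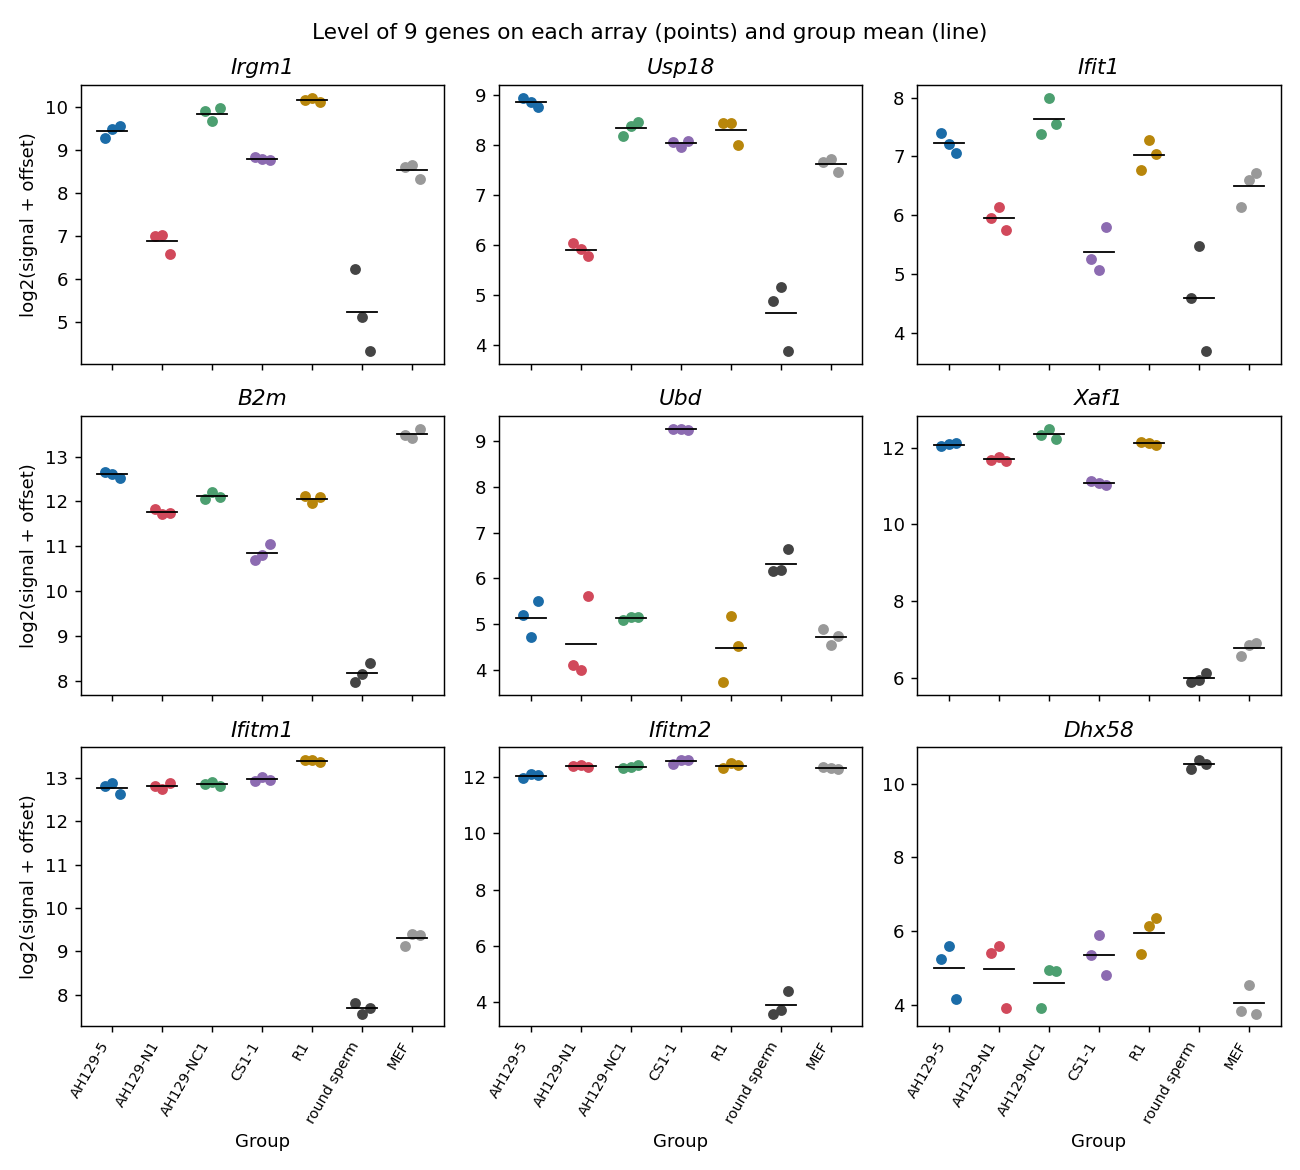
Level of 9 genes, log2(signal + 9.70), on each of the 3 arrays of the 7 groups (points) with the group mean (line), and a vertical scale of its own for each gene. Xaf1 is drawn from its brighter probe set. Irgm1 and Usp18 are lowest of the ES lines in AH129-N1, B2m is lowest in CS1-1, Ubd is high in CS1-1 at 9.26 on average, and Ifitm2 is high in every group except round sperm.

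The haploid lines as a whole were compared with the diploid lines in a fit that treats arrays of one line as correlated, since ploidy is a property of the line and not of the array. Of 36 genes tested, 2 passed, both lower in ahES cells, against 4.35% of 12891 genes in either direction, 1.35% as lower and 3% as higher. The ranges did not overlap for 7 of the 36, against 14% of all genes. None passed as higher by limma, whose unadjusted p was under 0.05 for 2 higher and 7 lower genes. The median difference was -0.31 over the 36 genes and -0.03 over all genes. Igtp had its lowest, median and highest level at 6.30, 7.59 and 8.51 over 9 ahES arrays, against 8.58, 8.90 and 9.02 over 6 diploid ES arrays (difference -1.36 ± 0.39, adjusted p = 0.0269). Bst2 (tetherin), which holds budding virus at the cell surface, was at 9.12, 9.32 and 9.71 over the ahES arrays, against 9.76, 10.44 and 10.71 over the diploid ES arrays (difference -1.02 ± 0.24, adjusted p = 0.00665).

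The ranges did not overlap in either gene, but neither call held in all alternatives. Without the line AH129-N1, Igtp differed by -0.85 (adjusted p = 0.0978), and it also did not pass without CS1-1 (-1.38, adjusted p = 0.0985) or R1 (-1.35, adjusted p = 0.0806). Bst2 lay just past 2-fold: its difference was -0.98 without AH129-5 replicate 3, -0.99 without AH129-NC1 replicate 3, -0.996 without R1 replicate 2 or R1 replicate 3, -0.97 without the line AH129-N1 and -0.69 without the line CS1-1. With 1 mean per line, 0 genes passed by limma, with 7 lower genes whose unadjusted p was under 0.05. Irf1 at -0.98 ± 0.18, Eif2ak2 (PKR), the kinase that stops translation on double-stranded RNA, at -0.74 ± 0.17, and Ifitm1 at -0.37 ± 0.12 had adjusted p-values under 0.05 and were short of 2-fold.

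The ahES lines were also set against each diploid line, which are 2 comparisons that share the ahES arrays and whose error is the spread between arrays of a line. Against CS1-1, 11 of 36 genes passed, 7 higher and 4 lower in ahES cells, beside 13.6% of 12746 genes that passed, 8.12% as higher and 5.5% as lower. Against R1, 3 of 35 passed, all lower, beside 7.81% of 12670 genes that passed, 4.86% as higher and 2.94% as lower. Ranges did not overlap for 14 of 36 genes with CS1-1 and 36.4% of all genes, and for 10 of 35 with R1 and 26.9% of all genes. No gene passed as higher against R1 by limma, whose unadjusted p was under 0.05 for 0 higher and 17 lower genes. Igtp passed in both, at -1.35 ± 0.14 against CS1-1 and -1.37 ± 0.14 against R1, but at -0.84 and -0.86 without the line AH129-N1, short of 2-fold. Irgm1 differed by -1.44 ± 0.09 from R1 and by -0.52 without AH129-N1. Psmb10 had levels from 7.80 to 8.72 over the ahES arrays, against 9.28, 9.28 and 9.22 in R1 (difference -1.004 ± 0.11). Psmb10 was at 2.01-fold and fell short without AH129-5 replicate 3, AH129-N1 replicate 1, AH129-NC1 replicate 1 or 3, R1 replicate 1 or 2, or the whole line AH129-NC1, at -0.88 to -0.999.

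The 7 genes higher in ahES cells than in CS1-1 were Ifit1, Psmb8, Ifit2, B2m, Sp110, Gbp3 and Sp100, and the 4 lower ones were Ubd, Igtp, Bst2 and Irf1. B2m had its lowest, median and highest level at 11.72, 12.10 and 12.66 in ahES cells, against 10.70, 10.80 and 11.04 in CS1-1 (difference 1.31 ± 0.06). Sp100, a nuclear body protein, was at 6.31, 6.68 and 7.50 in ahES cells, against 5.58, 5.47 and 5.59 in CS1-1 (difference 1.17 ± 0.20, or 0.87 and short of 2-fold with the mean of its probe sets). Its relative Sp110 was at 5.35, 6.41 and 6.76 in ahES cells, against 5.28, 4.79 and 5.03 in CS1-1, near background (difference 1.18 ± 0.26). Bst2 was at 10.71, 10.71 and 10.70 in CS1-1, above all ahES arrays (difference -1.35 ± 0.11). The ahES lines held 17160 to 24680 signal units of fibroblast markers and CS1-1 held 2594 to 3272, and the part of this RNA in these differences was not tested. Irf1 differed by -1.02 ± 0.08 and fell short of 2-fold without AH129-N1 replicate 2, AH129-NC1 replicate 2 or CS1-1 replicate 3, at -0.995, -0.995 and -0.94. Leaving out a whole line ended the call for Gbp3 without AH129-5 (0.99) or AH129-NC1 (0.71), Sp110 without AH129-5 (0.94) and Irf1 without AH129-NC1 (-0.89). Psmb8, near background in AH129-5, AH129-N1 and CS1-1, was no longer tested without AH129-NC1. With an offset of 50, 5 genes passed, and Gbp3, Ifit2, Psmb8, Sp100, Sp110 and Irf1 fell short of 2-fold.

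The wider pathway was also compared between ahES and diploid ES lines, where 3% of all genes passed as higher and 1.35% as lower. Of the other interferon-stimulated genes, 1 of 31 was higher in ahES than in diploid ES cells, Herc6, an Isg15 ligase in mice, at 2.59 ± 0.57 (at least 2.69-fold), and 1 was lower, Trim21, an antibody receptor of the cytosol, at -1.05 ± 0.29. Ikbke, a kinase upstream of Irf3 and Irf7, was higher by 1.88 ± 0.48 as 1 of 11 sensors and adaptors. In antigen presentation, 2 of 11 genes were lower and 0 higher, Tapbp (tapasin), which loads peptides onto MHC class I, at -1.12 ± 0.19, and Psme1, a subunit of the interferon-inducible proteasome activator, at -1.01 ± 0.12. Of the 6 receptor genes, the 10 JAK-STAT genes and the 14 constitutive proteasome subunits tested, 0 passed.

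Against MEF, members of the list differed in both directions. Of 35 genes tested, 7 were higher and 7 lower, against 42.1% of 13220 genes that passed in either direction, 21.1% as higher and 21% as lower, so the share of 40% in the list lay near that of all genes. The ranges did not overlap for 13 of the 35, against 63.3% of all genes. Xaf1 was at 11.64, 12.09 and 12.49 (lowest, median and highest) over 9 ahES arrays, against 6.57, 6.87 and 6.90 in MEF (difference 5.26 ± 0.07, 38.4-fold). The other probe set of Xaf1, also above background, was higher in ahES cells by 1.09 (2.13-fold), so the size of this difference depends on the probe set. Ifitm1, a membrane protein that blocks viral entry, was at 12.64, 12.82 and 12.91 in ahES cells, against 9.13, 9.40 and 9.37 in MEF (difference 3.52 ± 0.06, 11.4-fold). Its paralog Ifitm2 differed by -0.04 ± 0.11 and did not pass, and Ifitm3 was lower in ahES cells by -1.32 ± 0.15, so the 3 paralogs did not share a direction. Sp100 was at 3.93, 5.51 and 5.03 in MEF, near background (difference 1.89 ± 0.27, at least 2.40-fold). Rsad2, Trim25, Sp110 and Bst2 were higher by 1.03 to 1.56.

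Antigen processing genes made up 4 of the 7 lower genes. Tap2, a subunit of the peptide transporter, was at 5.58, 5.96 and 6.41 over the ahES arrays, against 7.94, 7.86 and 7.92 in MEF (difference -1.89 ± 0.21). Psmb8 at -1.57 ± 0.32, B2m at -1.34 ± 0.08 and Psmb10 at -1.30 ± 0.11 were lower too, while Psmb9 at 0.59 ± 0.19 and Tap1 at -0.90 ± 0.30 did not pass. Ifit2 was at 4.03, 6.64 and 7.28 over the ahES arrays, against 9.30, 9.33 and 9.25 in MEF (difference -3.09 ± 0.39, 8.50-fold), but Ifit1 at 0.45 ± 0.28 and Ifit3 at -0.13 ± 0.27 did not pass. Gbp2 was at 5.64, 6.08 and 6.78 over the ahES arrays, against 7.90, 8.06 and 7.73 in MEF (difference -1.75 ± 0.24). Without MEF replicate 3, Sp110 differed by 0.665 with an adjusted p of 0.0572, and Bst2 fell short of 2-fold without AH129-5 replicate 1 (0.98), MEF replicate 2 (0.98) or the line AH129-NC1 (0.998). Sp110, Bst2 and Psmb8 also fell short of 2-fold with an offset of 50.

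Other genes of presentation and of the interferon pathway were set beside these. Of 11 MHC class I and peptide loading genes, 6 were lower in ahES cells than in MEF and 0 higher, among them H2-K1 at -1.95 ± 0.07 and Tapbp at -1.14 ± 0.07. Of the 6 receptor genes, 4 were lower, including Ifngr2 at -3.46 ± 0.19 and Il10rb at -2.96 ± 0.17, and 1 was higher, Ifnlr1, at 1.74 ± 0.33. Of 10 JAK-STAT genes, 3 were higher and 3 lower, and of 11 sensors and adaptors, 2 were higher and 5 lower. Of 34 other interferon-stimulated genes, 7 were higher, including Oas1a at 3.90 ± 0.36, and 7 lower, a share close to the 21.1% and 21% of all genes that passed as higher and as lower. None of the 14 constitutive proteasome subunits passed, with a median difference of 0.40.

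In round sperm, 17 of the 37 genes (45.9%) were near background, against 28.5% of all genes. Of 37 genes tested, 24 were higher in ahES cells than in round sperm and 2 lower, against 73% of 14765 genes that passed in either direction, 40.8% as higher and 32.2% as lower. The ranges did not overlap for 21 of the 37, against 78.4% of all genes. The median difference was 1.29 over the list and 0.33 over all genes. Ifitm2 had its lowest, median and highest level at 11.98, 12.35 and 12.43 in ahES cells, against 3.58, 3.70 and 4.40 in round sperm (difference 8.38 ± 0.11, at least 110-fold). Ifitm3 was at 12.18, 12.75 and 13.38 in ahES cells, against 4.86, 5.49 and 6.04 in round sperm (difference 7.33 ± 0.15, at least 137-fold). Trim25, the ligase that activates RIG-I, was at 12.66, 12.75 and 12.83 in ahES cells, against 6.01, 5.69 and 5.81 in round sperm (difference 6.90 ± 0.06, 119-fold), while its other probe sets differed by 7.31 and 3.17. These genes lay near or just above background in round sperm and far above it in ahES cells.

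Xaf1 at 6.06 ± 0.07 and Ifitm1 at 5.13 ± 0.06 were also higher in ahES cells, as were B2m at 3.995 ± 0.08, Bst2 at 3.83 ± 0.26, Irgm1 at 3.49 ± 0.23, Irf9 at 3.26 ± 0.16 and Usp18 at 3.06 ± 0.19. Eif2ak2 was at 8.88, 8.61 and 8.61 in round sperm and differed by 0.02 ± 0.09 from ahES cells, with the brightest of its 3 probe sets. The other probe sets of Eif2ak2 were higher in ahES cells by 0.85 and 3.50, so its level relative to round sperm is not settled. Tap2, Psmb9, Iigp1, Oasl2, Irf7, Gbp2, Ifih1, Psmb8, Parp14 and Stat2 did not pass either. Tap1, Ifit2, Gbp3 and Ifit3 lay between 1.03 and 1.28. Ifit2 was 0.32 without round sperm replicate 2, Gbp3 was 0.68 without round sperm replicate 1, Ifit3 was 0.67 without round sperm replicate 3, and Tap1 was 0.76 without round sperm replicate 2, none of which passed. Tap1 also fell short without AH129-5 replicate 1 (0.91), AH129-N1 replicate 1 (0.998), AH129-N1 replicate 3 (0.95) or AH129-NC1 replicate 2 (0.98), and Ifit2 without AH129-5 replicate 3 (0.997) or AH129-N1 replicate 2 (0.93). With an offset of 50, those 4 genes, Rsad2, Sp100, Sp110 and Ubd fell short of 2-fold and 18 genes passed. The other probe sets of Rsad2 differed by 0.26 and by 2.185, the latter near background on average over all arrays. Quantile normalization left Psmb10 at 0.75, Rsad2 at 0.85 and Ifit2 at 0.99, short of 2-fold, with 21 genes higher and 3 lower. Centring the arrays on their medians left Tap1 at 0.91, Ifit2 at 0.92 and Rsad2 at 0.999, also short. Without the whole line AH129-NC1, Tap1, Ifit2, Gbp3 and Ifit3 differed by 0.73 to 0.82, and without AH129-5 Ifit2 differed by 0.63 and Rsad2 by 0.72, all short of 2-fold.

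Dhx58 and Ubd passed as lower in ahES cells than in round sperm, and Stat2 at -0.85 ± 0.23 and Tap2 at -0.22 ± 0.21 also had negative differences without passing. The other probe set of Stat2 differed by 0.27, so the direction for Stat2 is not settled. Dhx58 (LGP2), the third RIG-I-like receptor, was at 3.90, 4.94 and 5.60 (lowest, median and highest) in ahES cells, near background, against 10.39, 10.64 and 10.52 in round sperm (difference -5.67 ± 0.38, at least 31.8-fold, adjusted p = 3.76e-12). Its other probe sets, near background on average over all arrays, differed by -3.01 and -1.24. The direction was thus shared, while the size for Dhx58 depends on the probe set. Ubd was at 3.99, 5.15 and 5.61 in ahES cells, against 6.16, 6.18 and 6.63 in round sperm (difference -1.38 ± 0.32, at least 1.76-fold). Dhx58 reached no more than 6.35 on any array of the other groups, while of the other RIG-I-like receptors Ddx58 was higher in ahES cells than in round sperm, by 2.06 ± 0.10, and Ifih1 at 0.68 ± 0.34 did not pass.

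**Figure D4:**
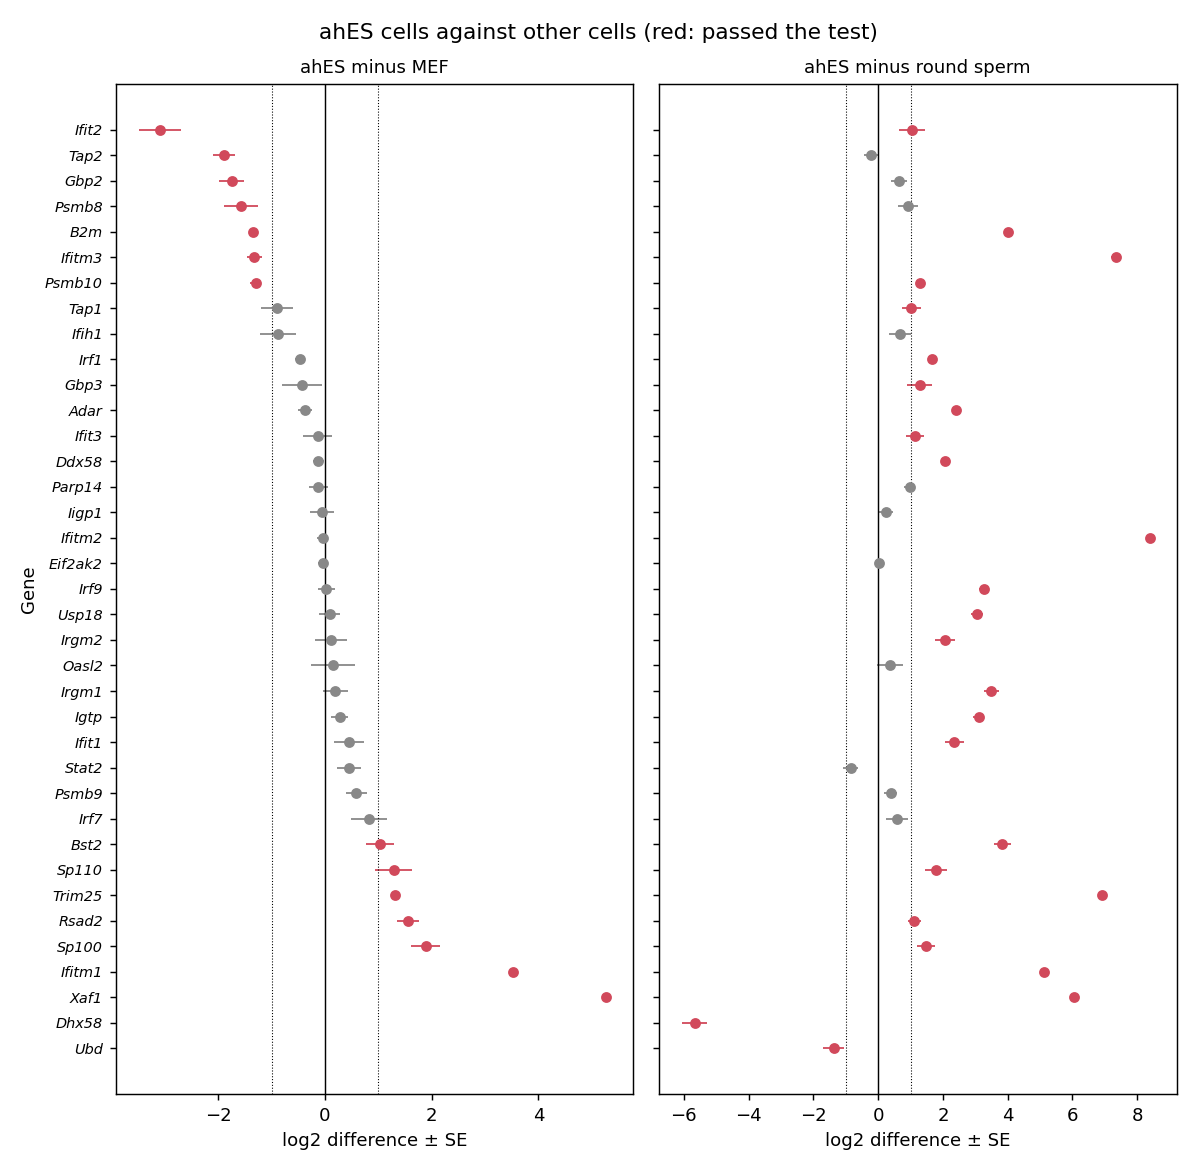
Log2 differences with their SE for each tested gene, ahES cells minus MEF on the left and ahES cells minus round sperm on the right, with red points for genes that passed and dotted lines at 2-fold. Genes run in order of the left panel, from Ifit2 at -3.09 to Xaf1 at 5.26. On the right 24 genes are higher in ahES cells and Dhx58 at -5.67 and Ubd at -1.38 are lower.

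Set against MEF, round sperm were lower for 25 of 33 genes and higher for 3, against 76% of 14407 genes that passed in either direction, 41.8% as lower and 34.3% as higher. The ranges did not overlap for 29 of the 33, against 89.6% of all genes. The median difference was -1.95 over the list and -0.32 over all genes. Ifitm3 was at 4.86, 5.49 and 6.04 in round sperm and 14.11, 14.10 and 14.15 in MEF (difference -8.66 ± 0.18, at least 342-fold). Ifitm2 was at 3.58, 3.70 and 4.40 in round sperm and 12.36, 12.32 and 12.28 in MEF (difference -8.42 ± 0.13, at least 113-fold). Both entry inhibitors were near background in round sperm. Trim25 differed by -5.58 ± 0.07, B2m by -5.34 ± 0.10 and Ifit2 by -4.13 ± 0.48, with B2m at 7.96, 8.15 and 8.39 in round sperm. The 3 higher genes were Dhx58, at 3.83, 4.52 and 3.75 in MEF (difference 6.48 ± 0.46, at least 33.8-fold), Ubd at 1.60 ± 0.39, and Stat2, the type I interferon signal transducer, at 6.65, 6.63 and 6.97 in round sperm and 5.51, 4.89 and 5.93 in MEF (difference 1.31 ± 0.28). The other probe set of Stat2 differed by 0.03, so the Stat2 call rests on 1 probe set. Those of Dhx58 differed by 3.55 and 1.67, in the same direction but by less. With an offset of 50, Stat2, Ubd and 6 of the lower genes fell short of 2-fold and 20 genes passed. Without round sperm replicate 3, Ifit3 differed by -0.81 and Parp14 by -0.95, and without MEF replicate 3 Parp14 differed by -0.97, all short of 2-fold. Quantile normalization left Ifitm1 at -0.91 and Parp14 at -0.87, and centring the arrays on their medians left Parp14 at -0.99, also short.

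Lists of the wider pathway differed in how many genes were lower in round sperm than in MEF, where 41.8% of all genes were lower and 34.3% higher. Of the 6 receptor genes, 5 were lower, among them Ifnar2 at -5.79 ± 0.25 and Il10rb at -6.10 ± 0.20, and Ifnlr1 was higher, at 1.43 ± 0.40. Of 12 class I and peptide loading genes, 8 were lower and 2 higher, Nlrc5, an activator of class I genes, at 2.01 ± 0.29 and Tapbpl at 1.502 ± 0.35. Of 31 other interferon-stimulated genes, 21 were lower and 7 higher, among them Isg20, a nuclease that degrades RNA, at 5.11 ± 0.19, and Epsti1 at 5.68 ± 0.25. Of 9 sensors and adaptors, 8 were lower and 0 higher. The JAK-STAT list held 4 lower genes, 1 higher gene and 5 that missed the thresholds, and of 6 MHC class II genes, 2 were higher and 0 lower. Of the 14 constitutive proteasome subunits, 7 were lower and 0 higher.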

How the data were processed

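RNA from 21 samples was measured on Affymetrix Mouse Genome 430 2.0 arrays. The deposited values are log2 signals made by the authors with MAS5, per the submitters' processing notes; the annotation of the 45101 probe sets, less 64 controls, gives 34945 with 1 gene symbol, 932 with several and 9160 with none. The 2% trimmed mean of the signals was 500 on every array. Here the values were returned to signals and read as log2(signal + 9.70), the offset being the median of the arrays' 20th percentiles. A gene was tested if, in 1 or more of the lines or groups being compared, none of the arrays fell below its own 40th percentile. Tests used limma 3.58.1 with statmod 1.5.0 in R 4.3.3, with trend and robust empirical Bayes, and Benjamini-Hochberg adjustment over all genes tested. The comparison of ahES with diploid ES lines used the line as a block (consensus correlation 0.687); the others fitted 1 mean per line or group over 15 or 21 arrays, so their error is the spread between arrays, which may be technical. The script was tested on simulated data. Levels were given for genes that passed without overlapping ranges, up to 6 per comparison by size, and for any set of 5 or fewer; further genes were picked after their values were seen. The members and lists were chosen with earlier results of these data known. Arrays limit precision by their number, 3 a group. Alternatives covered the offset, filter, normalization, probe sets, replicate block and arrays or lines left out.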

Additional observations from a re-analysis of the deposited data

Results flagged for a closer look

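In 1 of 74 sets of arrays examined, a single array stood far from the others. Chance flags about 1 in 20 where all arrays come from 1 group. Each set here pooled several lines, so that rate does not strictly apply, and differences between lines can hide a single array. The set flagged was Psmb8, the immunoproteasome subunit, over the 9 ahES arrays. AH129-N1 replicate 1 lay at 3.84, against 5.15 for the nearest array and 6.40 for the highest, a gap of 0.511 of the whole range. The level is near background, and the cause was not tested.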

How the results depend on the processing

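Alternatives in which the gene was still tested numbered 2278 for 112 results for single genes. Of these, 2156 kept their direction and side of the threshold, 121 no longer passed and 1 reversed. Calls lost because the gene fell out of the test, as with the filter at the 60th percentile, are not in this tally. The reversed one was Xaf1 between CS1-1 and R1, at 0.286 with the mean of its probe sets. With an offset of 50, which shrinks changes of dim genes, 1 gene passed between ahES and diploid ES lines in place of 2, 5 in place of 11 for ahES against CS1-1, 5 in place of 8 for CS1-1 against R1, 2 in place of 7 for AH129-5 and 7 in place of 13 for AH129-N1 against AH129-NC1. With the filter at the 60th percentile, which tests fewer genes, the counts were 6 for ahES against CS1-1, 4 for CS1-1 against R1, 4 for AH129-5, 5 for AH129-N1 against AH129-NC1 and 18 in place of 28 for round sperm against MEF. With arrays centred on their medians, 4 passed for AH129-5. For ahES against diploid ES, 1 passed without trend and robust estimation, 1 without the line AH129-N1, 1 without CS1-1, 4 without R1 and 0 with 1 mean per line. The gene that passed without AH129-N1 or without CS1-1 was neither Igtp nor Bst2, and without R1 Bst2 passed but Igtp did not. For ahES against R1, 6 passed in place of 3 without the line AH129-5, 1 without AH129-N1 and 5 without AH129-NC1. The cause was not tested. Leaving out 1 array at a time gave 1 to 3 for ahES against diploid ES, 10 to 13 against CS1-1, 2 to 5 against R1, 13 to 15 against MEF and 24 to 27 against round sperm. It gave 7 to 9 for CS1-1 against R1, 5 to 7 for AH129-5, 13 to 15 for AH129-N1 against AH129-NC1 and 26 to 28 for round sperm against MEF.

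With the replicate number as a block, the counts in the same order as in the report were 13, 7, 8, 2, 11, 3, 14, 26 and 28, the same as without it. Deviations of arrays that share a number correlated between -0.075 and 0.054 over 63 pairs of arrays. No pairing by number was thus visible in the values, which cannot show whether such samples were handled together. The offset and the low signal of many members limit folds against round sperm, AH129-N1 and CS1-1. All genes tested had a median difference of 0.325 for ahES against round sperm and -0.318 for round sperm against MEF, and differences there are to be read relative to it.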

Other observations

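MHC class II genes, which present peptides from outside the cell and respond to interferon gamma in many cells, showed H2-Eb1 higher in ahES than in diploid ES cells, by a log2 difference of 3.10 ± 0.35 (SE), as 1 of 6 genes tested. Among all genes in that comparison, 3% passed as higher. H2-Eb1 had a mean level of 9.83 over 9 ahES arrays and 6.73 over 6 diploid ES arrays, without overlap. It was lower in AH129-N1 than in AH129-NC1, by -1.34 ± 0.16. H2-Ab1 was higher in round sperm than in MEF, at 3.75 ± 0.30 (at least 5.02-fold).

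Of the 14 constitutive proteasome subunits, which form the proteasome of unstimulated cells, 9 were higher in ahES cells than in round sperm and 0 lower, among them Psma7 at 4.84 ± 0.06 and Psma2 at 3.59 ± 0.07. Of the 6 interferon receptor genes, 4 were higher in ahES cells than in round sperm, including Ifnar1 at 3.21 ± 0.22, and 1 was lower, Ifngr2, at -1.40 ± 0.19. Of all genes in this comparison, 40.8% passed as higher and 32.2% as lower.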
